A study of Ramazzottius varieornatus with 48 samples.

Results

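The 6 libraries described here are the 3 of the Short time course collected 1 h after UVC exposure and its 3 non-exposed libraries, out of 48 libraries in the series. Each library was made from 30 whole animals of the tardigrade Ramazzottius varieornatus, strain YOKOZUNA-1. All animals were reared at 22 °C in the dark on Chlorella, and the labels give no genotype beyond the strain. The exposed animals lay on a gel with the excess water taken off and received 2.5 kJ/m2 of UVC. The labels give the lamp as 0.54 mW/cm2, while the paper's methods give a slightly higher intensity for the Short time course. The exposed animals were put back in water at the end of the exposure, and were kept in the dark until sampling. Animals without exposure were sampled only at 0 h. Handling, water removal and an hour in the dark after it therefore cannot be told apart from UVC in this comparison. The study made more tubes than it sequenced and chose 3 per group by RNA integrity. The methods call the tubes biological replicates without saying whether they came from separate cultures, so p-values measure the spread between pools of animals. That spread was taken from all 27 Short libraries, treated as independent. Tubes of 30 were drawn at each time from exposed batches, so exposed libraries of different times are in part draws from the same batches. Which libraries share a batch is not given. The animals' ages are not given in the sources used here. Because whole animals were used, more cells of a type and more RNA per cell cannot be told apart.

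R. varieornatus is known for surviving the loss of nearly all its water, and for tolerating radiation in the hydrated state. UVC is absorbed by DNA and joins neighbouring pyrimidines into dimers, which photolyase splits in the light and excision repair removes in the dark, and it also raises reactive oxygen species. Superoxide dismutase, peroxiredoxin, thioredoxin and glutathione S-transferase are the usual enzymes against these. The cytosolic (CAHS) and secretory (SAHS) abundant heat soluble proteins are found in tardigrades and have been tied to tolerance of drying. CAHS proteins are largely disordered, while SAHS proteins fold like fatty acid-binding proteins. An hour is early for a transcript to accumulate, and a long-lived transcript changes little in that time even when its synthesis stops.

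Expression was measured as TPM, an abundance scaled for transcript length and depth that sums to 1000000 in every library, so a transcript can only gain at the expense of others. The depth behind the values is not given by the table. The paper's supplement lists sequencing statistics for each library, which were not used here. Between 2565 and 3006 of 14532 transcripts were listed at 0 in 5 of the 6 libraries, and 4075 in non-exposed replicate 2, which also listed 150 transcripts with a mean of at least 20 TPM in the other 42 libraries at 0, against 11 to 35 in the rest. This library stands apart, so the main counts are given with and without it below.

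The middle of the distribution went down at 1 h and its top went up. Without scaling, the median transcript was -0.28 lower on the log2(TPM + 1) scale than in non-exposed animals, and the 3 libraries lay at -0.29, -0.27 and -0.23 from the non-exposed mean, while the non-exposed libraries lay between -0.05 and 0.05. The shift depended on abundance. In the 5370 transcripts with a mean of 20 to 100 TPM in the other 42 libraries the median difference was -0.40, in the 2750 transcripts of 5 to 20 TPM it was -0.35, in the 1795 of 100 to 1000 TPM it was -0.05, and in the 118 of 1000 TPM or more it was 0.27. The 2055 transcripts under 5 TPM moved little, with a median difference of -0.03, so the shift did not run with abundance over the whole range. The 118 most abundant transcripts held 24.5%, 25.3% and 26.6% of all TPM in the non-exposed libraries and 31.0%, 31.4% and 31.1% at 1 h. The share of the class of 20 to 100 TPM was 25.4%, 26.6% and 23.3% in non-exposed animals and 19.3%, 19.4% and 20.1% at 1 h, and neither share overlapped between the groups. At 2 and 3 h the class of 20 to 100 TPM still lay at -0.17 and -0.23, and from 4 to 12 h between 0.00 and 0.14, all against the same non-exposed libraries. The classes were set after the data had been seen, from libraries outside the comparison.

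**Figure D1:**
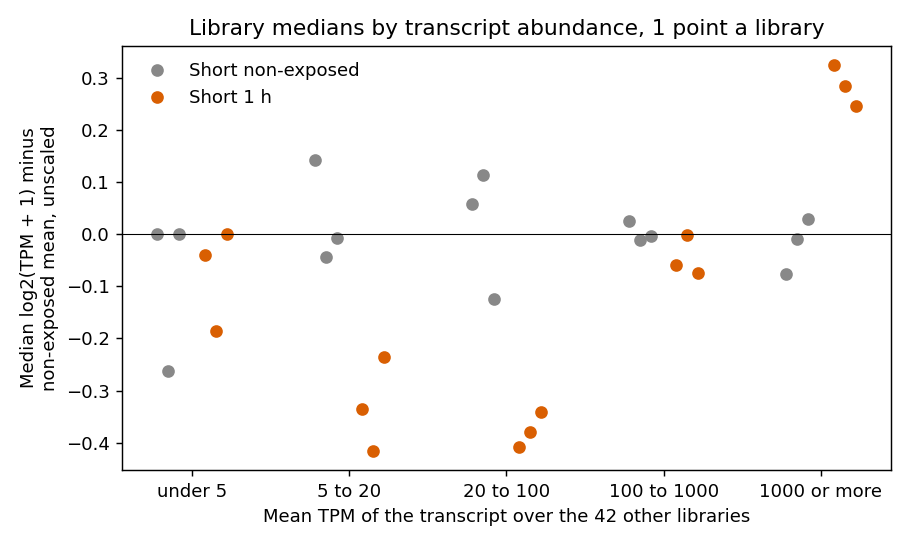
Median of log2(TPM + 1) minus the mean of the non-exposed libraries, without scaling (vertical axis), in 5 classes of transcripts by their mean TPM over the 42 other libraries (horizontal axis), with 1 point for each of the 6 libraries. The 3 libraries at 1 h lie below the non-exposed ones from 5 to 100 TPM and above them at 1000 TPM or more.

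To allow for the shift, each library was moved so that its median transcript lay at the same level as in the other Short libraries, which adds 0.30 to the log2 difference of every transcript. All log2 differences below are on this median-scaled log2(TPM + 1) scale unless said otherwise, while TPM values are as deposited. A transcript was called at a Benjamini-Hochberg adjusted p under 0.05 in limma and a log2 difference over 1 in size. Of 12088 tested transcripts, 105 were called higher at 1 h (0.869% of those tested) and 25 lower (0.207%). All 130 had 3 libraries at 1 h outside the range of the 3 non-exposed libraries on the scaled values. Over all tested transcripts, 13.9% lay wholly above and 11.5% wholly below in the same sense. Without scaling the balance turned to 27 higher (0.223%) and 113 lower (0.935%), and quantile normalization, which gives every library the same distribution, left 23 higher (0.190%) and 13 lower (0.108%). Fitting only the 6 libraries, with the spread taken from them alone, called 0 transcripts in either direction (1857 at an unadjusted p under 0.05, smallest adjusted p 0.0732), and leaving out non-exposed replicate 2 left 26 higher and 6 lower. Leaving out another library gave 27 to 127 higher and 3 to 17 lower. In all, 17 of the 105 rises and 1 of the 25 falls were called whichever library was left out, and 13 of the rises and 8 of the falls in none of those fits.

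The transcripts that rose were abundant ones. Their median level in the other 42 libraries was 465 TPM, against 29.0 TPM over all tested transcripts and 48.1 TPM for those that fell. Among the 118 transcripts of 1000 TPM or more, 13.6% rose and 0 fell, while of the 5370 at 20 to 100 TPM 0.372% rose and 0.354% fell. Together the 105 rises went from 40273 ± 4860 to 78012 ± 2980 TPM (sum per library, mean ± SD, n = 3). The share that rose follows abundance, as the shift of the classes does from 20 TPM upwards. Quantile normalization, which removes that trend, called 0 transcripts of 1000 TPM or more. The class under 5 TPM had a median-scaled median of 0.26, but 0 of its transcripts were called higher.

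**Figure D2:**
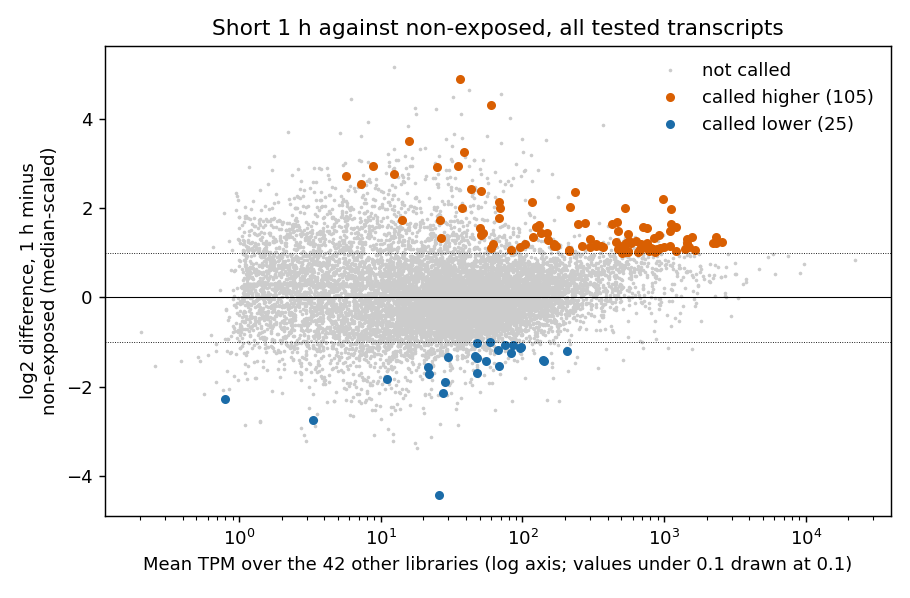
Median-scaled log2 difference at 1 h against non-exposed animals (vertical axis) by the mean TPM over the 42 other libraries (horizontal axis, log scale), with 1 point for each of the 12088 tested transcripts. The 105 called higher (orange) reach the most abundant transcripts, and the 25 called lower (blue) have a median of 48.1 TPM; dotted lines mark log2 differences of 1 and -1.

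Protein names are matches to Swiss-Prot proteins of other species, and were taken from the study's lists of transcripts that it found higher at some time after UVC. A name therefore comes with a direction already chosen on these samples, and the counts per gene list below are no independent sign of it. Of the 561 named transcripts, all of them tested, 32 rose and 0 fell, with a median log2 difference of 0.45, beside 0.02 over all tested transcripts. None of the 25 falls has a name. Of the 32, 7 were called whichever library was left out, 9 were called without non-exposed replicate 2, and those not said below to hold lost their call without at least 1 library. Of the 32, 4 were called under each of the 4 scalings tried (median, median ratio, quantile and none).

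The transcript matched to L-sorbosone dehydrogenase (g4636), a sugar-oxidizing enzyme known from bacteria, stood at 54.5, 51.2 and 104 TPM in the non-exposed libraries and 402, 214 and 262 TPM at 1 h (log2 difference 2.37 ± 0.35 (SE), adjusted p = 0.00162). Every exposed library lay above every non-exposed one. The aldo-keto reductase AKR1A1 match g4310, an enzyme that in mammals reduces aldehydes to alcohols with NADPH, had 236, 219 and 217 TPM in the non-exposed libraries and 653, 513 and 565 TPM at 1 h (log2 difference 1.65 ± 0.28 (SE), adjusted p = 0.00502). Its non-exposed libraries lay close together and all exposed ones were above them. The gene is RvY_16828, at BDGG01000014:702294-703914 of assembly Rvar_4.0, on the plus strand. Both g4636 and g4310 were called under each scaling and whichever library was left out. A relative of the reductase, AKR1A1-A (g9638), rose from 257 ± 49 to 454 ± 44.3 TPM (log2 difference 1.13, adjusted p = 0.0244).

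Most other members of the redox lists did not pass the test. Of 13 aldo-keto and short-chain reductases 3 rose and 0 fell (median log2 difference 0.69), the third being a match to SDR16C6 (g1078, 2.14, adjusted p = 0.0492), with 4.11 TPM in non-exposed replicate 2 beside 29.9 and 35.8 TPM in the other two. The short-chain enzyme DHRS1 (g1040) had a log2 difference of 1.40 with an adjusted p of 0.0746. Of 5 Cu/Zn superoxide dismutases, which turn superoxide into hydrogen peroxide, 1 rose: g6658 had 52.1, 86.1 and 106 TPM in the non-exposed libraries and 178, 149.9 and 194 TPM at 1 h (log2 difference 1.44 ± 0.31 (SE), adjusted p = 0.0242). The more abundant copies g455 and g456 had log2 differences of 0.50, adjusted p = 0.625 and 0.89, adjusted p = 0.0875. Of 9 members of the thioredoxin and peroxiredoxin system 1 rose, peroxiredoxin-2 (g6996), a thiol enzyme that removes hydrogen peroxide, with 569.8, 736 and 818 TPM in the non-exposed libraries and 1320.5, 1084 and 1266 TPM at 1 h (log2 difference 1.10 ± 0.22 (SE), adjusted p = 0.0158). The most abundant thioredoxin-2 (g11519) stood at a log2 difference of 0.72, adjusted p = 0.255. None of 11 glutathione S-transferases passed the test. Their summed level was 1833, 2367 and 2283 TPM without exposure and 3419.6, 3199 and 3109 TPM at 1 h, which do not overlap, and their most abundant member, GST Mu 1 (g4017), had 1068, 1397 and 1311 TPM in the non-exposed libraries and 2137, 2009 and 1782 TPM at 1 h (log2 difference 0.95, adjusted p = 0.162). In the dismutase sum the groups did not overlap either, with at most 903 TPM without exposure and at least 928 TPM at 1 h. Further oxidative enzymes with a call were the flavin-containing monooxygenase match g6002, from 8.87 ± 5.17 to 28.5 ± 6.34 TPM (log2 difference 2.00, adjusted p = 0.0301), and COQ7 (g5498), a mitochondrial hydroxylase of ubiquinone synthesis, from 46.6 ± 35.1 to 102 ± 18.6 TPM (log2 difference 1.63, adjusted p = 0.0137). Non-exposed replicate 2 was the highest of its group for g5498, at 87.2 TPM, below the 108 TPM but above the 80.7 TPM of exposed replicates 2 and 3 as deposited, and the groups separate only after the scaling.

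Signalling and protein turnover gave few calls. The p38-type MAP kinase match MAPK12 (g13163), a stress-activated kinase, had 150.1, 137 and 161 TPM in the non-exposed libraries and 256, 250.3 and 305 TPM at 1 h (log2 difference 1.15 ± 0.19 (SE), adjusted p = 0.0039) and was called whichever library was left out. Polyubiquitin-A (g1328), the precursor that supplies free ubiquitin, had 826, 824 and 627 TPM in the non-exposed libraries and 1143, 1745.4 and 1077 TPM at 1 h (log2 difference 1.07 ± 0.19 (SE), adjusted p = 0.00592). It was the only rise among 28 members of the ubiquitin, proteasome and autophagy list, of which 0 fell and whose median log2 difference was 0.07 (-0.22 without scaling and -0.01 under quantile normalization). Sequestosome-1 (g422), a receptor that delivers ubiquitin-tagged cargo to autophagy, was the most abundant member after it, with 584, 539 and 537 TPM without exposure and 556.9, 512 and 591 TPM at 1 h (log2 difference 0.30 ± 0.16 (SE), adjusted p = 0.41). These libraries overlap as deposited. Of 14 MAP kinases and transcription regulators 2 rose and 0 fell (median -0.09). Beside MAPK12 this was the forkhead factor FOXA2 (g2246), from 25.2 ± 9.57 to 43 ± 2.86 TPM (log2 difference 1.11, adjusted p = 0.0346). FOXA2 averaged 49.9 TPM in the non-exposed animals of the Long time course, above its 1 h level as deposited. The ERK-type kinase mpk-1 (g7736) stood at -0.05, adjusted p = 0.961. Neither this list nor the ubiquitin list had a call without scaling or under quantile normalization. A match to the natriuretic peptide receptor (g1425), a membrane guanylate cyclase in mammals, had 39.9, 20.6 and 34.7 TPM in the non-exposed libraries and 69.8, 69 and 61.6 TPM at 1 h (log2 difference 1.40 ± 0.27 (SE), adjusted p = 0.0138) and was called under each scaling.

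Several matches to secreted proteases rose. Chymotrypsinogen A (g631) and elastase 2A (g630), the precursors of digestive serine proteases in mammals, carry neighbouring identifiers. The first had 882, 958 and 1132.3 TPM in the non-exposed libraries and 1808, 1753 and 1704 TPM at 1 h (log2 difference 1.13 ± 0.18 (SE), adjusted p = 0.0039). The second had 1149.9, 1515 and 1259 TPM in the non-exposed libraries and 2469, 2145 and 2782 TPM at 1 h (log2 difference 1.21 ± 0.22 (SE), adjusted p = 0.00801), and both were called whichever library was left out. A kallikrein-8 match (g8526), another serine protease, rose from 783 ± 132 to 1412 ± 52.6 TPM (log2 difference 1.16, adjusted p = 0.00716) and was also called in each of those fits. Plasminogen (g3140), a protease precursor of mammalian blood, rose from 1884 ± 476 to 3593 ± 470.3 TPM (log2 difference 1.25, adjusted p = 0.00861), ovochymase-1 (g5917) from 46.6 ± 10.6 to 96.8 ± 12.5 TPM (1.35, adjusted p = 0.0242), and carboxypeptidase B (g9083) from 366 ± 4.16 to 606 ± 19.4 TPM (1.02, adjusted p = 0.0431). Of 19 digestive enzymes in the gut marker list 3 rose (g630, g631 and g9083) and 0 fell, with a median log2 difference of 0.77. Of the 561 named transcripts 32 rose, and of all tested transcripts 0.869%. Without scaling and under quantile normalization 0 members of the list were called. The list sum was 6220, 6342 and 6188 TPM without exposure and 8953, 8104 and 9286 TPM at 1 h, all members being above 0 in each of the 6 libraries. A member that stood lower was the lysosomal enzyme cathepsin L (g10499), with a mean of 1307 TPM in non-exposed animals, 826 TPM at 1 h and a log2 difference of -0.35 (adjusted p = 0.245). Of 7 muscle markers 1 rose, the myophilin match g9050, an actin-binding calponin-type protein of muscle in flatworms, with 38.3, 27.6 and 34.1 TPM in the non-exposed libraries and 125, 111 and 126 TPM at 1 h (log2 difference 2.13 ± 0.47 (SE), adjusted p = 0.0257). Tropomyosin (g7288), the most abundant of the list, was at 0.13, adjusted p = 0.853, and the muscle sum was 726 to 1162 TPM without exposure and 937 to 1134 TPM at 1 h. The yolk list holds 2 transcripts, of which 0 passed the test. Vitellogenin-6 (g772) ranged from 1031 to 1682 TPM without exposure and from 930.4 to 2032 TPM at 1 h. The other, the apolipophorins match g4803, stood at 87.2 ± 12.2 TPM without exposure and 49.6 ± 16.2 TPM at 1 h. It lay lower at 1 h without overlap in scaled values (log2 difference -0.55, adjusted p = 0.47). The part of tissue or egg content in these rises was not tested.

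Among the proteins tied to drying, 1 CAHS transcript of 4 rose and 0 fell. The CAHS 2 match g675 had 458, 505 and 491 TPM in the non-exposed libraries and 1628, 1768 and 1298 TPM at 1 h (log2 difference 1.98 ± 0.46 (SE), adjusted p = 0.032), with no overlap. It is RvY_00946, at BDGG01000001:2618953-2619923 of Rvar_4.0, on the plus strand. With any of the 6 libraries left out g675 was no longer called. The more abundant CAHS 2 transcript g5971 had 711, 1233 and 876 TPM in the non-exposed libraries and 1290.0, 938 and 975 TPM at 1 h, which overlap (log2 difference 0.50, adjusted p = 0.566), and the other CAHS matches had log2 differences of 1.23 (g7798) and 1.27 (g612) with adjusted p of 0.21 and 0.264. Of 5 SAHS transcripts 0 rose (median log2 difference 0.56). The most abundant, g1675, had 2220.2, 2521 and 2785 TPM in the non-exposed libraries and 2879, 3619.8 and 2591 TPM at 1 h, and its log2 difference was 0.56, adjusted p = 0.407. Astacin-type zinc metalloproteases, secreted enzymes that in nematodes act on cuticle and on food, had 1 rise among 8 members and a median of 1.06. That rise was NAS-14 (g11193), with 1304, 1674 and 2295 TPM in the non-exposed libraries and 3455, 3410.4 and 3795 TPM at 1 h (log2 difference 1.35 ± 0.26 (SE), adjusted p = 0.011).

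Lipid carriers gave 2 rises among 8 members, with 0 falls and a median of 0.66. Apolipoprotein D (g6328), a small secreted carrier of lipophilic molecules, had 1131, 958 and 1063 TPM in the non-exposed libraries and 2276, 1911 and 2426 TPM at 1 h (log2 difference 1.36 ± 0.31 (SE), adjusted p = 0.0298). Its groups did not overlap, but with any of the 6 libraries left out it was no longer called. It is RvY_04462, at BDGG01000002:3053205-3054138 of Rvar_4.0, on the minus strand. The fatty acid-binding myelin P2 match (g12679) rose from 638 ± 219.7 to 1308 ± 195 TPM (log2 difference 1.39, adjusted p = 0.0431), with 384 TPM in non-exposed replicate 2 and at least 761 TPM in the other two. The large lipid transport protein matched to apolipophorins (g4803) was at -0.55, adjusted p = 0.47.

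Ribosomal proteins lay above the non-exposed level throughout, though few passed both thresholds. All 20 ribosomal proteins of the list had a log2 difference above 0 (range 0.46 to 1.22, median 0.89), in all 20 the scaled libraries at 1 h lay above the non-exposed ones, and 10 had an adjusted p under 0.05, of which 3 also passed the fold threshold. Of all tested transcripts 13.9% lay wholly above, of the 561 with a protein name, from which the list was drawn, 37.1%, and 1.22% of all tested were higher at that adjusted p with no fold threshold. Their summed level was 11096, 10188 and 10955 TPM without exposure and 15902, 15742 and 14990 TPM at 1 h. The 3 were RPL22 (g5612), with 303, 348 and 359 TPM in the non-exposed libraries and 698, 607.2 and 527 TPM at 1 h (log2 difference 1.15 ± 0.20 (SE), adjusted p = 0.00502), RPS23 (g10428), from 525 ± 9.38 to 935 ± 115 TPM (1.12, adjusted p = 0.0254), and RPL5 (g2592), from 226 ± 72 to 393 ± 54.2 TPM (1.13, adjusted p = 0.0257). The most abundant, RPL19 (g3666), stood at 0.52, adjusted p = 0.114, and RPS27 (g3622) at 0.97, adjusted p = 0.0431. The elongation factor EF1-delta (g12592), which recharges the factor that brings tRNA to the ribosome, rose from 719.5 ± 104 to 1209.5 ± 55.6 TPM (log2 difference 1.06, adjusted p = 0.014). Under quantile normalization the median of the list was 0.40 and 0 members were called, and without scaling it was 0.59 with 0 called. The list's median level in the other libraries was 503 TPM, in the range where the class median itself rose relative to the middle of the distribution.

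The other named rises belong to no list. They were CHCHD2 (g3585), a mitochondrial protein, from 248 ± 85.7 to 449 ± 27.6 TPM (log2 difference 1.22, adjusted p = 0.0127), the sugar-transfer enzyme match B3GALT5 (g7591), from 21.7 ± 10.8 to 48.3 ± 7.36 TPM (1.55, adjusted p = 0.0298), beta-glucosidase (g12424), from 24.4 ± 9.43 to 44.3 ± 4.88 TPM (1.20, adjusted p = 0.0295), VWA5A (g5100), from 21.6 ± 10.2 to 47.2 ± 13.8 TPM (1.44, adjusted p = 0.0355), and the lipid amide hydrolase NAAA (g4611), from 104 ± 75.9 to 245 ± 41 TPM (2.03, adjusted p = 0.0431). For g4611 the isoform g4611.t2 carried 158 TPM in non-exposed replicate 2, where g4611.t1 had 16.8 TPM. With isoforms summed, g4611 had 196, 175 and 203 TPM without exposure and 344, 260.2 and 289.5 TPM at 1 h, with a log2 difference of 0.94 (adjusted p = 0.0067), which does not pass the fold threshold.

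**Figure D3:**
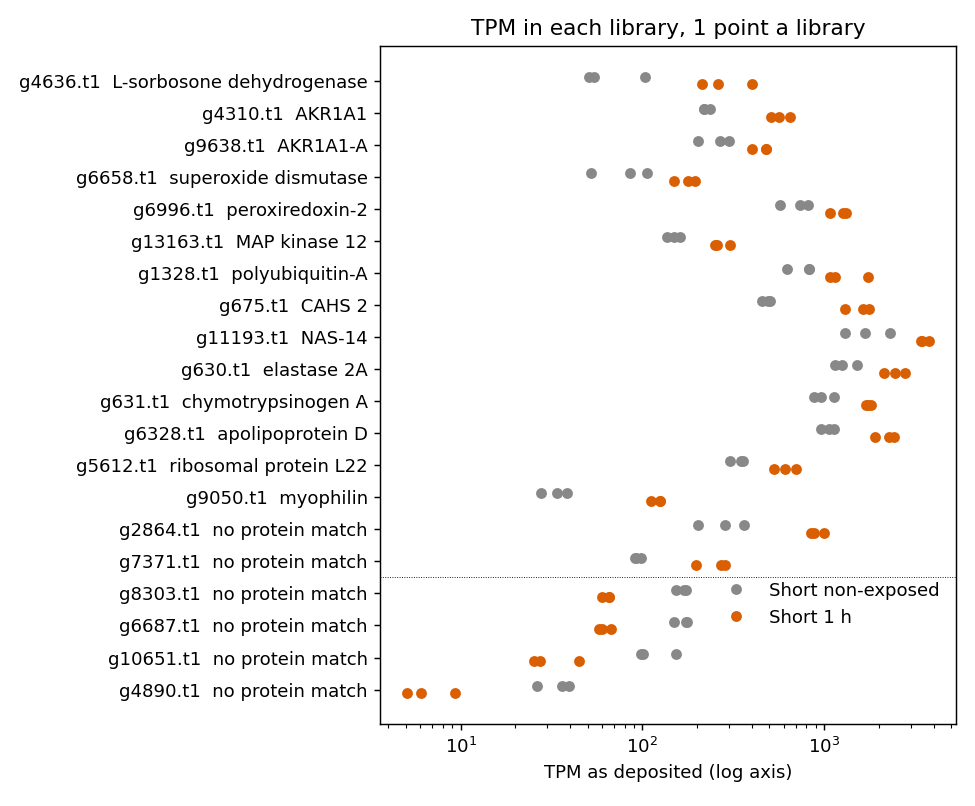
TPM as deposited (horizontal axis, log scale) in each of the 3 non-exposed (grey) and 3 exposed (orange) libraries at 1 h for 16 transcripts called higher and, below the dotted line, 4 called lower. In each of the 20 the exposed libraries lie outside the range of the non-exposed ones.

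Without a protein name, the largest rises were of transcripts at or near 0 in at least 1 non-exposed library. Of the 10 largest, 8 were listed at 0 in non-exposed replicate 2, and 2 of the 10 were still called without that library: g3432 and g10215. g3432 had 92, 4.45 and 6.02 TPM in the non-exposed libraries and 202, 244 and 297 TPM at 1 h (log2 difference 4.31 ± 0.71 (SE), adjusted p = 0.00425), and it also stood at 44.0 TPM on average in the non-exposed animals of the Long time course, the other set of untreated animals in the series. g10215 was listed at 0 in all 3 non-exposed libraries of the Short and of the Long time course, and had 5.53, 5.01 and 18.9 TPM at 1 h (adjusted p = 0.00425). g3922 was listed at 0 in the same 6 non-exposed libraries and had 8.88, 4.52 and 1.83 TPM at 1 h (adjusted p = 0.0496). The largest log2 difference among the rises was that of g7532, with 1.26, 0 and 8.65 TPM in the non-exposed libraries and 54, 107 and 51.9 TPM at 1 h (log2 difference 4.90 ± 1.14 (SE), adjusted p = 0.032), which was no longer called without non-exposed replicate 2. The rest were g688, g7101, g10860, g6594, g11364 and g12838, at 5.91 to 50.4 TPM in the exposed and 0 to 29.2 TPM in the non-exposed libraries.

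Some rises held whichever library was left out. g2864, chosen after its values were seen for its small adjusted p, had 287, 362 and 203 TPM in the non-exposed libraries and 844, 879.7 and 998 TPM at 1 h (log2 difference 2.00 ± 0.24 (SE), adjusted p = 0.000169), and stood at 297 TPM on average in the Long non-exposed animals. It is RvY_14862, at BDGG01000011:379329-379852 of Rvar_4.0, on the minus strand. g7371 had 92.6, 98.7 and 91.7 TPM in the non-exposed libraries and 197, 284 and 271 TPM at 1 h (log2 difference 1.68 ± 0.18 (SE), adjusted p = 6.28e-05), the smallest adjusted p of the comparison. Beside these and g3432, g10215, g4636, g4310, g631, g630, g8526, g13163 and g5612, the rises called whichever library was left out were g1814, which had 354, 347 and 334 TPM in the non-exposed libraries and 892, 787 and 609 TPM at 1 h (log2 difference 1.42 ± 0.21 (SE), adjusted p = 0.00159), and g298, g777, g2627, g4911 and g9200, which were named after their values were seen and had log2 differences of 1.18 to 2.00.

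In TPM, the gains were spread over fewer transcripts than the losses. The gains and losses over all transcripts came to 168609 TPM each. A gain was seen in 4479 transcripts, 95 of which held 50% of it, and a loss in 8898, of which 731 were needed for 50%. The 105 rises held 22.4% of the gain, and the 25 falls 0.918% of the loss. The 5 largest gains were g12750, g1671, g12459, g8269 and g1669, which held 13.2% of the gain. None of them passed the test or has a protein name. g12750 had 16023, 18974 and 19089 TPM in the non-exposed libraries and 25771, 25512 and 26948 TPM at 1 h, no overlap, and a log2 difference of 0.83, adjusted p = 0.134. g1671 had 12582, 11972 and 14976 TPM in the non-exposed libraries and 15886, 20918 and 17722 TPM at 1 h (log2 difference 0.76, adjusted p = 0.23). The 5 largest losses were g2957, g7701, g8454, g773 and g5171. None of them passed the test. The groups stood apart in g8454, with 3143, 2485 and 2488 TPM in the non-exposed libraries and 773, 827 and 1557 TPM at 1 h (log2 difference -1.13, adjusted p = 0.437), and in g773, with 1783, 1736 and 2168 TPM in the non-exposed libraries and 611, 570.0 and 953 TPM at 1 h (log2 difference -1.15, adjusted p = 0.208), whereas g2957 overlapped, with 2158 to 4660 TPM without exposure and 406 to 3126 TPM at 1 h. Called rises of the highest level were NAS-14, plasminogen, elastase 2A and apolipoprotein D, given above, and g8780, with 1495, 1979 and 2559.6 TPM in the non-exposed libraries and 4937, 2828 and 3692 TPM at 1 h (log2 difference 1.22 ± 0.30 (SE), adjusted p = 0.0431).

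The 25 falls were of transcripts at moderate levels, with a median of 66.9 TPM without exposure and 23.2 TPM at 1 h, and log2 differences between -1.003 and -4.42. Together they went from 2292 ± 81.0 to 745 ± 132 TPM (mean ± SD, n = 3). Since they have no Swiss-Prot name here, their function is not described. Without scaling all 25 were called as well, which is favoured because every log2 difference is then lower by 0.30. The most abundant were g11157, g5065, g6687, g8303 and g4939. g8303 had 153, 169 and 175 TPM in the non-exposed libraries and 65.6, 65.3 and 60.1 TPM at 1 h (log2 difference -1.06 ± 0.21 (SE), adjusted p = 0.0162). g6687 had 175, 174 and 150.3 TPM in the non-exposed libraries and 60.2, 57.6 and 67 TPM at 1 h (log2 difference -1.12 ± 0.26 (SE), adjusted p = 0.0298). In both the groups did not overlap, but g6687 was called in 0 of the 6 fits that leave out a library and g8303 in 1, the one without non-exposed replicate 1. Among the deepest falls, g4890 had 36.2, 39.7 and 26.4 TPM in the non-exposed libraries and 6.03, 5.05 and 9.36 TPM at 1 h (log2 difference -1.89 ± 0.40 (SE), adjusted p = 0.0219), and g10651 had 98, 101 and 153 TPM in the non-exposed libraries and 45.1, 25.4 and 27.3 TPM at 1 h (log2 difference -1.53 ± 0.31 (SE), adjusted p = 0.0178). g877 was the fall called whichever library was left out, with 7.05, 5.20 and 3.72 TPM without exposure and 0, 0.0979 and 0 TPM at 1 h, but the Long non-exposed animals had 0.494 TPM on average. g3947 was listed at 0 in all 3 libraries at 1 h and had 11.4, 7.18 and 4.39 TPM in non-exposed ones (adjusted p = 0.0337).

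In g3632 both isoforms had to be read together. g3632.t2 had 22.6, 32.2 and 22.3 TPM without exposure and was listed at 0 in all 3 libraries at 1 h (adjusted p = 0.0431). g3632.t1 had 0, 0.0797 and 0.0914 TPM without exposure and 30.3, 11.9 and 14.98 TPM at 1 h (adjusted p = 0.0809). Summed over both isoforms, g3632 had 22.6, 32.3 and 22.4 TPM without exposure and 30.3, 11.9 and 14.98 TPM at 1 h. These overlap, and with isoforms summed the log2 difference was -0.20 (adjusted p = 0.876), so the fall is of the isoform as estimated by kallisto and was not found for the gene.

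For the repair of DNA damage, none of 14 listed transcripts passed the test in either direction. Their median log2 difference was 0.06, close to the 0.02 of all tested transcripts, and -0.24 without scaling. The smallest adjusted p was that of RPA2 (g131), a subunit of the protein that coats single-stranded DNA, with 57.6, 61.3 and 58.5 TPM in the non-exposed libraries and 66.8, 91.8 and 93.9 TPM at 1 h (log2 difference 0.78 ± 0.22 (SE), adjusted p = 0.0813). Its groups did not overlap. Photolyase (g7472) had means of 27.8 TPM without exposure and 35.4 TPM at 1 h (log2 difference 0.67, adjusted p = 0.184), UV-damage endonuclease (g12984) 39.7 and 25.3 TPM (-0.37, adjusted p = 0.665), and the PARP2 match g9591, which marks DNA breaks with ADP-ribose chains, 39.3 and 19.6 TPM (-0.67, adjusted p = 0.242). None of these 3 passed the test. Of 8 histones 0 passed. Histone H4 (g7436) had 612.1, 613 and 579.9 TPM in the non-exposed libraries and 851, 1323 and 1476 TPM at 1 h (log2 difference 1.27, adjusted p = 0.0761), with no overlap. Of 7 chaperones 0 passed, and the mitochondrial HSP60 (g10900) stood at 0.43, adjusted p = 0.295 and the immunophilin FKBP12 (g11454) at 0.85, adjusted p = 0.235.

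**Figure D4:**
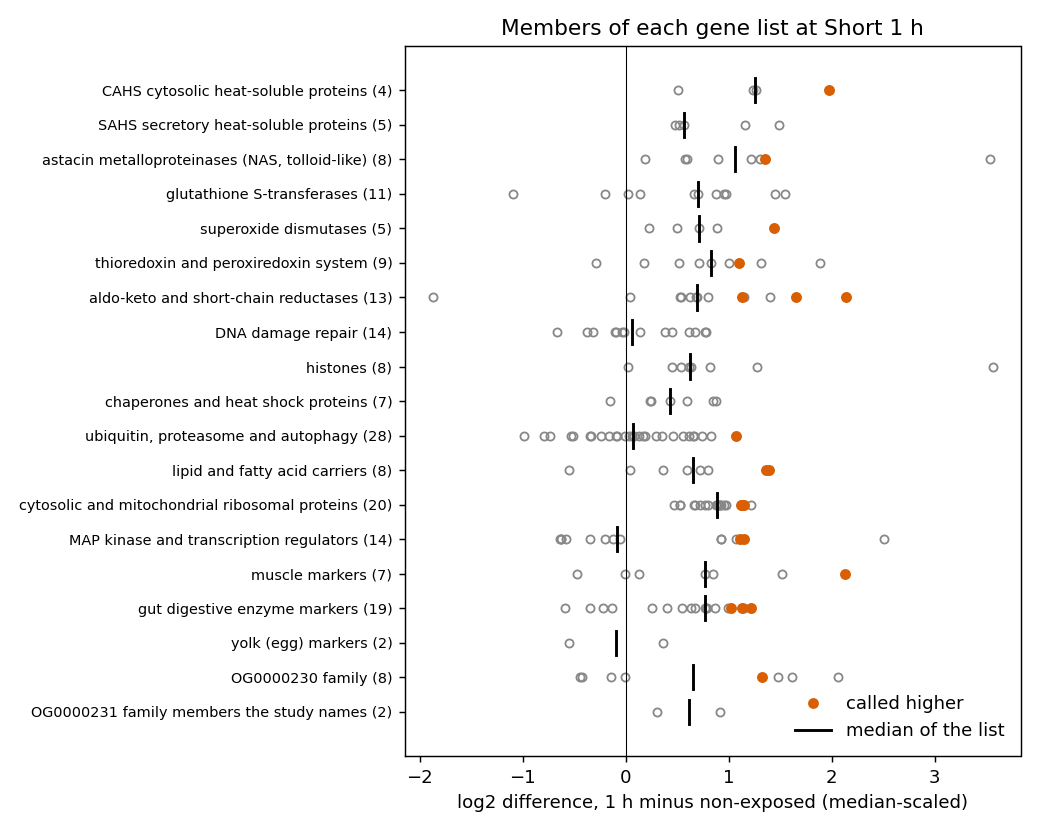
Median-scaled log2 difference at 1 h (horizontal axis) for each tested member of the 19 gene lists (rows, number tested in brackets), with members called higher filled in orange and the list median as a bar. The ribosomal, CAHS, SAHS, astacin, superoxide dismutase, histone and OG0000231 lists lie wholly above 0, and the lists of DNA repair, of ubiquitin and autophagy, and of kinases and transcription regulators are spread about 0. The OG0000231 list holds only 2 of the family's copies. Names come from lists of transcripts that the study found higher at some time.

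Of the transcripts that the study names by identifier, g241, g2856 and g12777 were taken here, and none of them was called at 1 h. Other copies of the OG0000231 family that the paper names are not described. g2856, of the OG0000231 family of tardigrade proteins, had 287, 281 and 302 TPM in the non-exposed libraries and 306, 298 and 269 TPM at 1 h (log2 difference 0.30, adjusted p = 0.607). g12777 of the same family had 364, 218 and 227 TPM in the non-exposed libraries and 479, 337 and 407 TPM at 1 h, with overlap as deposited between 364 and 337 TPM, and a log2 difference of 0.92, adjusted p = 0.0524. g241, of the OG0000230 family, had 71.5, 137 and 104 TPM in the non-exposed libraries and 267, 210.4 and 282 TPM at 1 h, with no overlap and a log2 difference of 1.61, adjusted p = 0.0977. A relative, g8595, did rise, with 132, 173 and 173 TPM in the non-exposed libraries and 410.4, 278 and 293 TPM at 1 h (log2 difference 1.32 ± 0.29 (SE), adjusted p = 0.0254), while g7651 of the same family stood at -0.43, adjusted p = 0.869. Of the 10 members of that family 8 were tested and 1 rose.

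Only 1 of the 105 rises was called between 1 h and 2 h. Against 2 h, 0 transcripts were higher at 1 h and 4 (0.0331%) were lower, with 824 at an unadjusted p under 0.05. Of the 4, g7371 was also called against non-exposed animals. It stood at 94.4 ± 3.79 TPM in those, 251 ± 47.0 TPM at 1 h and 608 ± 24.3 TPM at 2 h (1 h against 2 h: log2 difference -1.08 ± 0.18 (SE), adjusted p = 0.0214). The other 3 are enzymes that were not called at 1 h: SelO-1 (g5548), a mitochondrial protein that attaches AMP to other proteins, the lipid-modifying HRAS-like suppressor 3 (g2658), and lipoyl synthase (g5798), which makes the lipoic acid cofactor of mitochondria. They were named after their values were seen. g5548 had 55.5, 42.04 and 65.9 TPM at 1 h and 159, 244 and 198 TPM at 2 h. g5798 had 87.8, 108 and 80.5 TPM at 1 h and 255, 253 and 292 TPM at 2 h, and g2658 had 152, 176 and 217 TPM at 1 h and 402, 469 and 430.2 TPM at 2 h. Polyubiquitin-A stood at 2176 ± 9.97 TPM at 2 h (adjusted p = 0.497). The comparison with 2 h shares the 1 h libraries with the main one, and its calls change with the library left out, from 0 to 3 lower. Median ratio scaling and a fit of only the groups compared left 0 lower.

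Against 12 h, 182 transcripts were higher at 1 h (1.51%) and 105 lower (0.869%). Without scaling the balance turned to 69 higher and 313 lower. Of the 105 rises, 13 were higher at 1 h than at 12 h and 2 lower, and of the 25 falls 1 was lower. Since the rises were chosen for a high value at 1 h, a step down later is favoured by that choice. The 2 that were higher still at 12 h were g7371 and g11902. g11902 had 264, 219 and 129 TPM in the non-exposed libraries and 288, 357 and 351 TPM at 1 h, and 890.0 ± 54 TPM at 12 h (log2 difference -1.11 ± 0.22 (SE), adjusted p = 0.00403). Among those called higher at 1 h than at 12 h, RPL22 stood at 272 ± 46.5 TPM (log2 difference 1.49 ± 0.20 (SE), adjusted p = 0.000117), RPL5 at 225 ± 47.6 TPM, g8780 at 1493 ± 459 TPM (log2 difference 1.69 ± 0.30 (SE), adjusted p = 0.00211), and g3031, after a rise from 124 ± 31.4 to 269.8 ± 29 TPM at 1 h, at 77.9 ± 7.16 TPM. g4631 had gone from 1079.6 ± 393 to 1847 ± 402 TPM and stood at 723 ± 68.8 TPM at 12 h. g4159 had gone from 394 ± 84.8 to 736 ± 142 TPM and stood at 279 ± 65.5 TPM, and g8991 had gone from 479.9 ± 14.7 to 807 ± 96.9 TPM and stood at 423 ± 51.7 TPM. Other rises were not called between these times: L-sorbosone dehydrogenase stood at 279 ± 61.4 TPM at 12 h and MAPK12 at 319 ± 38.9 TPM (adjusted p = 0.840 and 0.967). Over the whole Short time course the summed level of the 105 rises was 67580 ± 4806 TPM at 2 h, 73554 ± 2406 TPM at 3 h, 54706 ± 8399 TPM at 4 h and 62753 ± 8401 TPM at 12 h, beside 40273 TPM in the non-exposed animals. The rises were chosen for low values in these same non-exposed libraries, which favours higher sums at every later time.

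**Figure D5:**
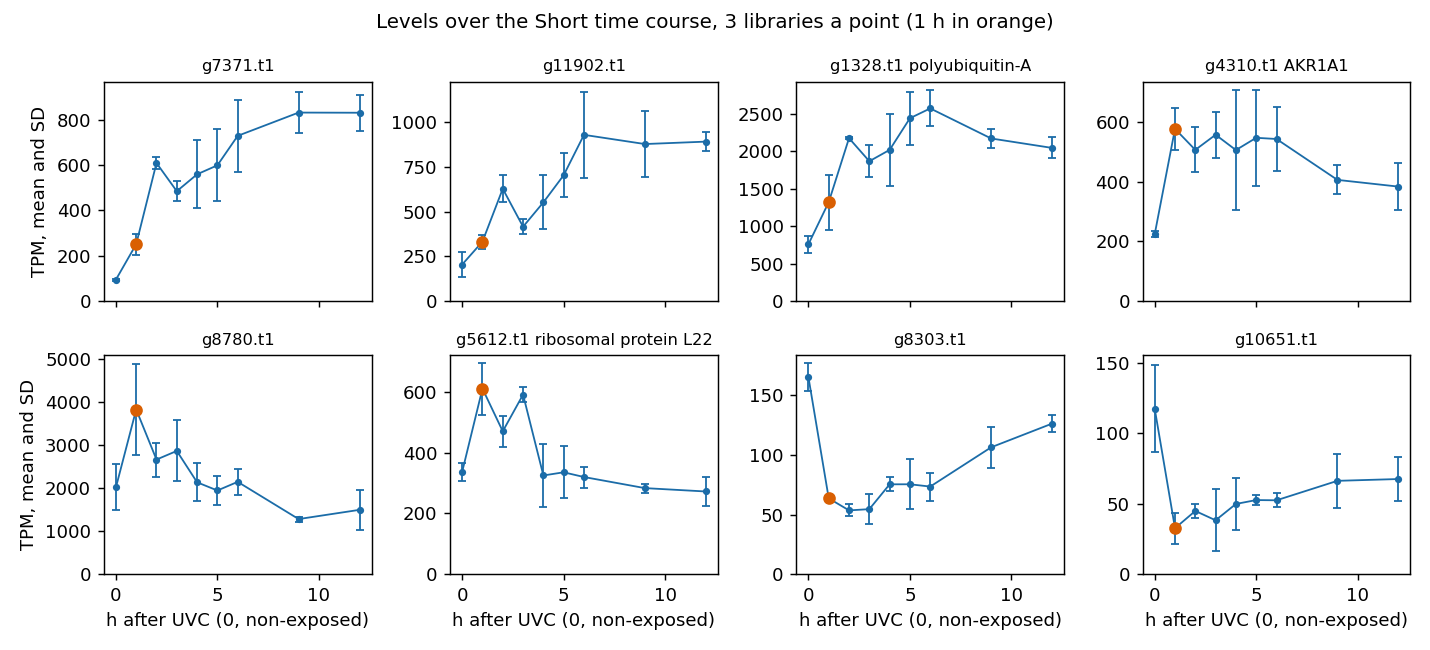
TPM as deposited (vertical axes, mean and SD of 3 libraries) by hours after UVC (horizontal axes, 0 for non-exposed animals) for 6 transcripts called higher and 2 called lower at 1 h, with 1 h in orange. g7371, g11902 and polyubiquitin-A stand higher at 12 h than at 1 h, g8780 and RPL22 lower, and g8303 and g10651 lie below the non-exposed level at every time shown.

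The calls under all 4 scalings were 16 rises and 10 falls. The 16 include L-sorbosone dehydrogenase, AKR1A1, COQ7 and the natriuretic peptide receptor match, which are the 4 with a protein name, and g688, g2864, g3432, g7371, g7532 and g10215. The 10 falls include g877, g1839, g3947, g4890, g6493, g6687, g8303 and g10651. For falls, no scaling is no stricter a test, since it lowers every log2 difference. Against the Long untreated animals most calls lay on the same side. On values scaled over all 48 libraries, the 3 libraries at 1 h lay above all 3 Long non-exposed libraries for 93 of the 105 rises (88.6%, against 20.7% of all tested transcripts), and below them for 19 of the 25 falls (76.0%, against 18.2%). Of the 105 rises, 104 had a log2 difference above 0 on these values. As deposited, FOXA2 (g2246) and VWA5A (g5100) averaged 49.9 and 61.4 TPM in the Long non-exposed animals, against 43.0 and 47.2 TPM at 1 h. For g6658, g9050 and polyubiquitin-A the highest Long non-exposed library, at 211, 128 and 1249 TPM, lay above at least 1 library at 1 h. They were picked for this after their values were seen. The Long libraries come from another time course, and this comparison was added after the data had been seen and keeps the 1 h libraries by which the calls were made.

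Some rises had neighbouring identifiers. Of the 105 rises, 17 (16.2%) had another rise within 5 identifiers, as had 847 (7.07%) of the other 11983 tested transcripts, and 0 of the 25 falls had another fall that near. Identifiers followed position on the assembly in all 119 adjacent pairs with known positions on the same scaffold. The runs include g630 and g631, the 2 proteases above, and, named after their values were seen, g674 with the CAHS transcript g675, g776 with g777, g4631 with g4636, g8752 with g8755, g12678 and g12680 with the myelin P2 match g12679, and g12533, g12534, g12535 and g12540. How alike in sequence such neighbours are, and so whether reads could be divided among copies, was not tested.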

How the data were processed

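Whole-animal polyadenylated RNA was sequenced (75 bases, single-end), and 48 libraries in 16 groups of 3 were deposited. The authors quantified reads with kallisto against their gene set and deposited TPM for 14532 transcripts per library, without pooling. Their own test used counts (BWA, DESeq2) that the table does not hold, so limma on log2(TPM + 1) took its place. The 27 Short libraries were fitted together (eBayes with trend, R 4.3.3, limma 3.58.1) for the 12088 transcripts whose TPM averaged 1 or more across all 48, after shifting each library so that its median deviation from the transcript means was 0. Adjustment was by Benjamini-Hochberg within each comparison; calls needed an adjusted p under 0.05 and a log2 difference over 1 in size. Fits were checked on simulated data with independent noise and the same shift at 1 h for every transcript. That check cannot speak to a shift that depends on abundance or to shared batches. Depth is not given by TPM, so precision rests on the spread between libraries, shared over the 9 Short groups of 3. Summaries used Python 3.11.15, numpy 2.4.6 and pandas 2.3.3.

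The comparison and the gene lists were chosen with earlier results of these data known. Transcripts were named by a written rule: the 10 largest rises and falls whose groups did not overlap, up to 30 called transcripts with a Swiss-Prot match, the 5 most abundant calls in each direction, the 5 largest gains and losses of TPM, g241, g2856 and g12777, in each list the member with the smallest adjusted p and the 2 most abundant, and, among the calls, the 5 with the smallest adjusted p against 2 h and against 12 h. Any other transcript was named after its values were seen. Alternatives were scaling (none, quantile, median ratios over transcripts of at least 20 TPM), pseudocounts of 0.1 and 5, filters, a fit of only the groups compared, the replicate number as a block, isoforms summed, robust eBayes, array weights, no fold threshold and each library left out. Locus tags are from assembly Rvar_4.0 and cover 20 of the 130 calls. No sequences were used here.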

Additional observations from a re-analysis of the deposited data

Results flagged for a closer look

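For 19 of the 102 named transcripts the level at 1 h differed from that at 12 h in the test of that difference itself (limma, median-scaled log2 difference, 1 h minus 12 h), 15 being higher at 1 h and 4 lower. Of the 19, 5 had been named for their small adjusted p in this comparison, so the count is partly fixed by that choice, and of all tested transcripts 2.37% were called in it. Higher at 1 h were the SAHS matches g1624 (1.74) and g1675 (1.88), the abundant g1669 (1.502) and g1671 (1.06), RPL5 (g2592, 1.14), RPL22 (g5612, 1.49), g2856 (1.65), g12777 (1.11), glutathione S-transferase 1 (g10962, 1.14), g3031 (2.10), g3432 (2.81), g4159 (1.72), g4631 (1.65), g8780 (1.69) and g8991 (1.25). Of these, g1624, g1675, g1669, g1671, g2856, g12777 and g10962 had not been called at 1 h against non-exposed animals. Lower at 1 h were sequestosome-1 (g422, -1.61), g7371 (-1.42), g11902 (-1.11) and g3632.t2, whose -4.60 depends on the pseudocount, as it was listed at 0 in all libraries at 1 h. Between 1 h and 2 h, g7371 alone of the named transcripts was called (-1.08). All these comparisons share the 1 h libraries.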

How the results depend on the processing

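Against non-exposed animals (105 higher and 25 lower), the counts moved by more than 1.5 times without scaling (27 and 113), under quantile normalization (23 and 13), with a pseudocount of 5 (67 higher), with no filter (38 higher), with array weights (61 lower) and with only the groups compared (0 and 0). Leaving out each library gave 26 to 127 higher and 3 to 17 lower. Against 2 h (0 higher and 4 lower), no scaling gave 7 lower, quantile normalization 2, median ratios 0, only the groups compared 0 (1323 at an unadjusted p under 0.05), array weights 18 higher and 15 lower, and leaving out a library 0 to 1 higher and 0 to 3 lower. Against 12 h (182 higher and 105 lower), no scaling gave 69 and 313, quantile normalization 71 higher, array weights 344 and 205, no fold threshold 278 higher, and leaving out a library 72 to 208 higher and 66 to 87 lower. The unscaled median of -0.28 became 0.018 with median scaling, -0.0279 with quantile normalization, 0.00204 with median ratios and -0.19 with no filter. The cause was not tested, apart from the median, which the scalings set near 0 by construction.

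Of 1936 values of the named transcripts under the alternatives, 1462 kept their side of the threshold, 466 were no longer called, 8 became called and 0 called ones changed direction. The 1462 include named transcripts not called in the main fit, which keep their side by staying uncalled. The 466 can come only from called transcripts, so 1462 of 1936 is not the share of calls that held. The replicate number as a block gave 122 higher and 27 lower. Deviations of same-numbered 1 h and non-exposed libraries correlated at 0.00644, 0.0473 and 0.00317, so the numbers were not taken to pair them. Pairing of the 1 h libraries with those of later times, which are in part draws from the same exposed batches, was not tested. Where a library was left out, its group kept 2 and the spread was shared with the other groups. With TPM alone, a 0 can be a failed estimate and low levels have unknown counting error.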
